A study of Oryctolagus cuniculus with 12 samples.

Results

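Fibroblast growth factors (FGFs), their receptors, and the coreceptor klotho were followed in rabbit conjunctiva after glaucoma filtration surgery. The genes were taken by name from the deposited gene table: FGF23, FGF1, FGF2, FGF7, FGF10, FGF18, FGFR1, FGFR2, FGFR3, and KL. Of these 10 genes, 9 had a row among the 20566 genes of the table, and FGFR3 was not analysed here. FGF23 had been chosen by its high CPM and fold change in TL3h and TL3d, so its values are given as a description without a test, while the other 8 genes were tested. RNA from the conjunctiva of female Japanese white rabbits was sequenced in 12 libraries, 3 per group. The groups TL3h, TL3d, and TL14d were bleb conjunctiva taken at 3 hours, at 3 days, and at 14 days from trabeculectomy (TL), an operation that drains aqueous humor through a scleral flap to a bleb below the conjunctiva. The operated right eyes had received mitomycin C, an agent that limits scarring, and at the end of surgery an injection of betamethasone under the conjunctiva and an antibiotic ointment. The control group was conjunctiva of left eyes without surgery, and no group was operated on without these agents, so surgery and agents cannot be told apart. The pairs of control and operated eyes are not given in the labels or the methods, so p-values measure the spread between these libraries.

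FGFs are signaling proteins that bind tyrosine kinase receptors on the cell surface. FGF1, FGF2, FGF7, FGF10, and FGF18 act locally and are held near their source by heparan sulfate, a sugar chain that also takes part in receptor binding. FGF23 binds heparan sulfate weakly, circulates as a hormone made mainly by bone cells, and acts on the kidney through FGF receptors joined to klotho, the product of KL, to lower phosphate reabsorption. In surface tissues, FGF7 and FGF10 come from stromal cells and act on the epithelial form of FGFR2, while FGFR1 is the usual receptor of fibroblasts.

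Between 27111276 and 38591374 counts were assigned to genes in each library. Levels are CPM, counts per 1000000 counts with library sizes adjusted by the trimmed mean of M-values (TMM), and 3 counts in a library were worth 0.0712 to 0.124 CPM. The TMM factors were 0.768 to 0.783 in TL3h and 1.03 to 1.13 in the other groups, and scaling by library size alone shifted the log2 fold changes at TL3h from a median of 0.02 to one of -0.47 over all genes. Conjunctival keratins were present, with a control mean of 3128 CPM for KRT4, and the corneal keratin KRT12 had a mean of 2.42 CPM. Libraries within the control, TL3d, and TL14d groups differed widely in their RNA of fibroblast markers. The summed level of 6 fibroblast markers was 8572, 24318, and 53196 CPM in control replicates 1 to 3, 69656, 87675, and 73637 CPM in TL3h, 1074, 8672, and 45554 CPM in TL3d, and 17988, 7394, and 39559 CPM in TL14d. The 4 measured skeletal muscle markers summed to 177 CPM in control replicate 2 and 128 CPM in TL3d replicate 3, and to 0.598 to 6.55 CPM in the other libraries. In bulk tissue, fewer cells of a type and less RNA per cell cannot be told apart. The 6 neutrophil markers summed to 3.42 to 80.7 CPM in the control group, 1033 to 2751 CPM in TL3h, 252 to 891 CPM in TL3d, and 3.26 to 2073 CPM in TL14d. Most of the TL14d sum was MMP9, with a mean of 696 CPM there. The other neutrophil markers had TL14d means of 1.27 to 30.0 CPM, beside control means of 2.29 to 9.19 CPM. The 5 measured markers of monocytes and macrophages summed to 68.1 to 602 CPM in the control group, 636 to 973 CPM in TL3h, 1245 to 2003 CPM in TL3d, and 89.3 to 408 CPM in TL14d. The part of these cells in the levels of the FGF genes was not tested.

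FGF23, the phosphate-regulating hormone, was nearly absent from control conjunctiva and was detected in every library at 3 hours and 3 days. Its gene lies on chromosome 8 of the rabbit genome OryCun2.0, between 30469098 and 30477049 on the minus strand. The control libraries held 0, 0, and 19 counts, or 0, 0, and 0.477 CPM. In TL3h, FGF23 was at 25.4, 49.6, and 19.7 CPM. In TL3d, it was at 77.9, 23.7, and 9.68 CPM. In TL14d, it was at 0, 0.353, and 0.977 CPM. All 6 libraries of 3 hours and 3 days lay above all 6 libraries of the control group and 14 days. The order of the group means was TL3d at 37.1 ± 36.0 CPM, TL3h at 31.6 ± 15.9 CPM, TL14d at 0.443 ± 0.494 CPM, and control at 0.159 ± 0.275 CPM (SD, n = 3). TL3d and TL3h overlapped, and so did TL14d and control. The highest library was 8.05 times the lowest within TL3d and 2.52 times the lowest within TL3h. The mean was 199 times the control mean at TL3h and 233 times at TL3d, and these ratios rest on the 19 counts of control replicate 3. Without that library the control count was 0, and FGF23 was at least 432-fold higher in TL3h and at least 507-fold higher in TL3d than the level that 3 counts per library would give. The TL3d values rest on replicate 1 as well: without it the mean was 16.7 CPM, the ratio to the control mean was 105, and the bound was at least 228-fold, and TL3d lay below TL3h by a log2 difference of -0.92 in place of 0.23. Osteocytes are the main known source of the hormone. Of their markers, SOST, DMP1, and MEPE did not exceed 0.109 CPM in any library. PHEX was at 0.5, 1.54, and 1.21 CPM in TL3h and 0.425, 0.339, and 0.256 CPM in TL3d. Which cells made FGF23 was not tested. The 5 osteocyte markers summed to 0.831 to 1.71 CPM in the control group, 0.5 to 1.62 CPM in TL3h, 0.625 to 0.77 CPM in TL3d, and 0.908 to 31.9 CPM in TL14d, where the bone matrix gene IBSP had a mean of 16.7 CPM.

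**Figure D1:**
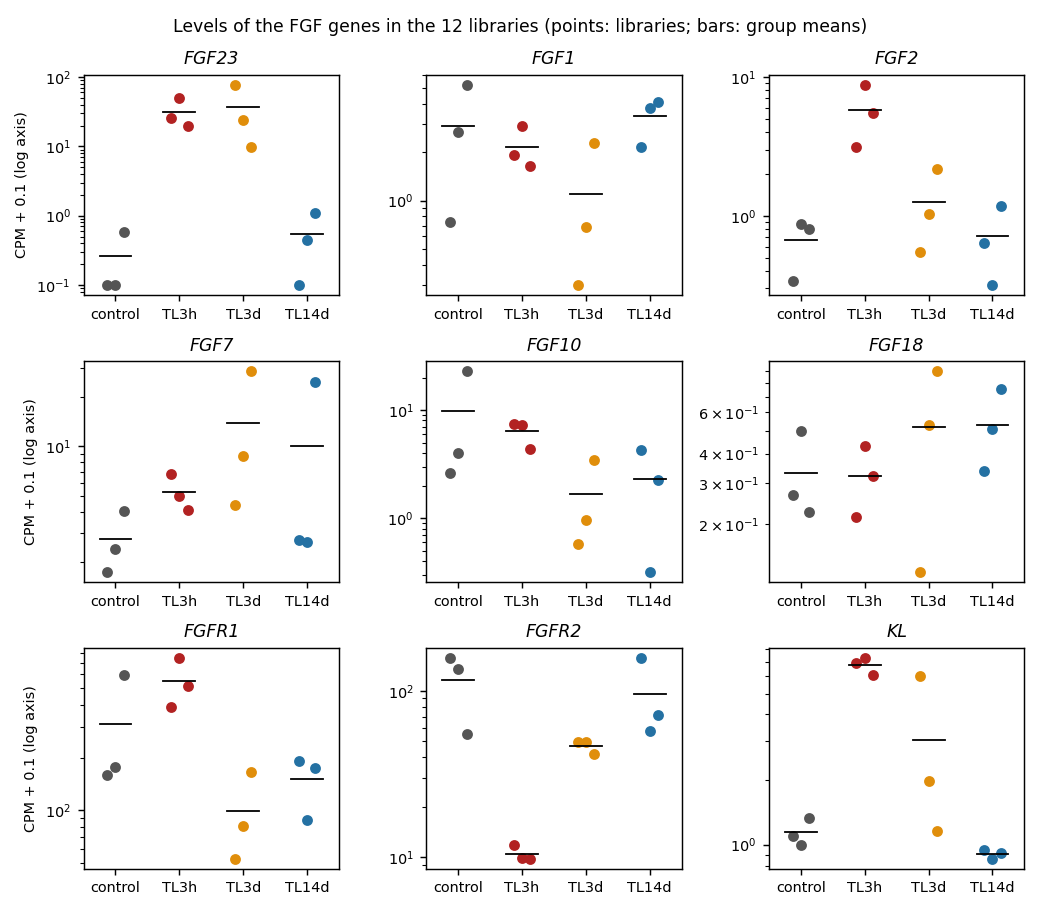
Level of each gene in CPM plus 0.1 on a log axis, with 1 point per library, the 4 groups on the horizontal axis, and a bar at each group mean (n = 3). The axes differ between panels. FGF23 stands at 9.68 to 77.9 CPM in TL3h and TL3d and below 1 CPM in the other groups, FGFR2 is lowest and KL highest on average in TL3h, and control replicate 3 stands apart for FGFR1 and FGF10.

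Among the 8 tested genes, 3 passed the threshold at TL3h against the control group (q at most 0.05, where q is the Benjamini-Hochberg adjusted p of edgeR's quasi-likelihood test over 14835 genes). Over all genes tested, 45.4% did so, 23.2% higher and 22.2% lower, so the count is near the background. FGF2 and KL rose, and FGFR2 fell. The groups did not overlap for these 3 genes or for FGF7, which makes 4 of 8, beside 57.3% of all genes, and 3 of 8 had an unadjusted p under 0.05, beside 52.3%. At TL3d, 0 of 8 passed with edgeR, beside 17.6% of all genes. An unadjusted p under 0.05 was found for 5 of 8, beside 36.2%, the groups did not overlap for 2 of 8 (FGF7 and FGFR2), beside 45.5%, and 5 passed with DESeq2, beside 30.3%. At TL14d, 0 of 8 passed with edgeR or DESeq2 and 0 had an unadjusted p under 0.05. The background there was 0.00%, with 1538 genes (10.4%) at an unadjusted p under 0.05 and 367 genes called by DESeq2, and the groups did not overlap for 1 of 8 (KL), beside 11.1%. The 3 comparisons share the control libraries. The median log2 fold change of the 8 genes was 0.39 at TL3h, -0.24 at TL3d, and -0.10 at TL14d, beside 0.02, -0.0018, and 0.02 over all genes.

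FGF2, or basic FGF, a broad mitogen of fibroblasts and endothelium, rose at 3 hours. It was at 0.237, 0.775, and 0.702 CPM in the control libraries, 3.04, 8.71, and 5.38 CPM in TL3h, 0.45, 0.924, and 2.08 CPM in TL3d, and 0.538, 0.217, and 1.07 CPM in TL14d. Every TL3h library lay above every library of the other 3 groups. The log2 fold change at TL3h was 3.31 ± 0.77 (SE, q = 0.0060, edgeR). From TL3h, FGF2 fell by 2.31 ± 0.74 on the log2 scale to TL3d (q = 0.032, edgeR) and by 3.23 ± 0.77 to TL14d (q = 0.0071, edgeR). Over all genes, 37.3% passed between TL3d and TL3h (18.4% higher and 19.0% lower) and 45.3% between TL14d and TL3h (22.9% higher and 22.3% lower), and both comparisons share the TL3h libraries. Of the 8 tested genes, 3 and 4 passed. The groups did not overlap for 5 of 8 genes in each of them, beside 54.7% and 52.8% of all genes, and 4 of 8 had an unadjusted p under 0.05 in each, beside 47.5% and 52.8%. The difference between TL3d and TL3h did not pass when TL3d replicate 1, TL3d replicate 2, TL3h replicate 2, or TL3h replicate 3 was left out, with q up to 0.113, or with library size alone, with q = 0.060. The FGF2 model is 651 bases long, on chromosome 15 from 98654470 to 98739064, and shares 117 bases with NUDT6 on the opposite strand. All 12 FGF2 counts were fractions, and whether strand was used in counting is not stated, so reads in the shared bases cannot be told apart. In NUDT6 the control mean of 6.89 ± 1.49 CPM was above the TL3h mean of 1.81 ± 0.63 CPM (SD, n = 3), the opposite order to FGF2.

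FGF7, also called keratinocyte growth factor, is made by stromal cells and acts on epithelium. It was at 1.64, 2.28, and 3.99 CPM in the control libraries, 6.73, 4.94, and 4.02 CPM in TL3h, 4.30, 8.62, and 28.4 CPM in TL3d, and 2.62, 2.55, and 24.6 CPM in TL14d. All TL3h and TL3d libraries lay above the control libraries, by a narrow margin at 4.02 against 3.99 CPM, and 1 library of TL14d did so by a wide one. The log2 fold change was 0.99 ± 0.93 at TL3h (SE, q = 0.419, edgeR), 2.39 ± 0.96 at TL3d (q = 0.103), and 1.91 ± 0.94 at TL14d (q = 0.519). The highest values of TL3d and TL14d were both in replicate 3, which also had the highest fibroblast marker sum of its group, and their part in the FGF7 level was not tested. Without TL14d replicate 3, the log2 fold change at TL14d was -0.02, and the test at TL3d passed with q = 0.043. Without TL3d replicate 3, the log2 fold change at TL3d was 1.29 with q = 0.335. FGF7 lies on chromosome 17 inside the span of FAM227B on the opposite strand, whose mean stayed at or below 0.0626 CPM in every group.

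FGF10, the stromal partner ligand of the epithelial FGFR2, varied widely within the control group and did not pass the test in any comparison with edgeR, while DESeq2 called it lower at TL3d (q = 0.035). It was at 2.54, 3.88, and 22.7 CPM in the control libraries, 7.34, 7.18, and 4.28 CPM in TL3h, 0.475, 0.862, and 3.36 CPM in TL3d, and 4.17, 0.217, and 2.15 CPM in TL14d. The TL3d libraries all lay below the TL3h libraries, and only TL3d replicate 3 reached the control range. The log2 fold change was -0.63 ± 1.06 at TL3h (SE, q = 0.664, edgeR), -2.63 ± 1.12 at TL3d (q = 0.121), and -2.16 ± 1.10 at TL14d (q = 0.530). Without control replicate 3, the library with the highest fibroblast marker sum of its group, the value at TL3h was 0.91 and that at TL3d was -1.05.

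FGF1, or acidic FGF, which binds all FGF receptors, did not pass the test in any comparison with edgeR. It was at 0.641, 2.58, and 5.14 CPM in the control libraries, 1.81, 2.82, and 1.54 CPM in TL3h, 0.2, 0.585, and 2.19 CPM in TL3d, and 2.05, 3.64, and 4.0 CPM in TL14d. The groups overlapped with the control group at each time. FGF18, a ligand best known from cartilage and bone growth, was low, with 1 to 28 counts a library. It was at 0.166, 0.4, and 0.125 CPM in the control libraries, 0.115, 0.332, and 0.22 CPM in TL3h, 0.025, 0.431, and 0.797 CPM in TL3d, and 0.235, 0.408, and 0.651 CPM in TL14d, and it did not pass in any comparison with edgeR. The log2 fold change at TL3d was -1.49 ± 0.85 for FGF1 (SE, q = 0.232, edgeR) and 0.84 ± 0.90 for FGF18 (q = 0.530). For FGF1 it was -2.83 without TL3d replicate 3 (q = 0.057) and -0.71 without control replicate 3 (q = 0.596).

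**Figure D2:**
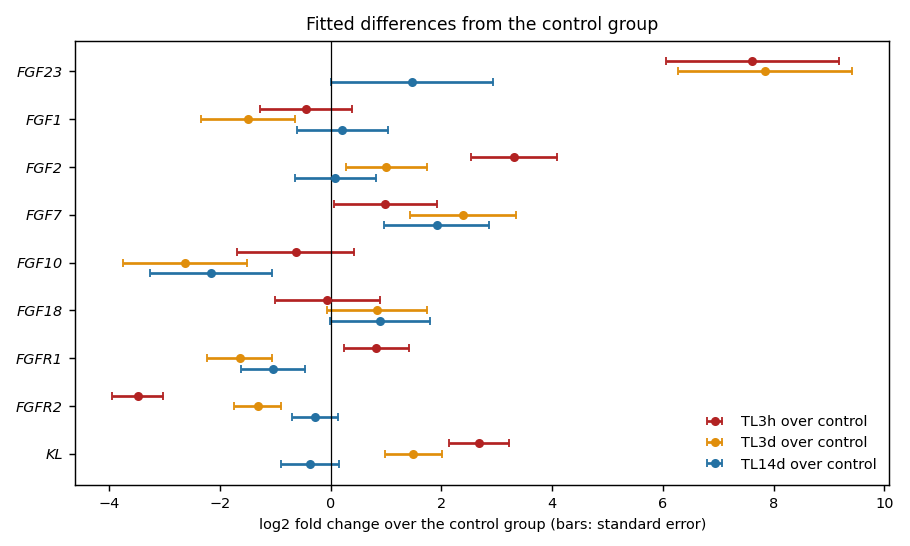
Log2 fold change over the control group on the horizontal axis for 9 genes, with the standard error as bars and 1 color per time after surgery (n = 3 per group). FGF23 lies at 7.62 and 7.85 at TL3h and TL3d without a test, FGF2 at 3.31 and KL at 2.67 are to the right at TL3h, and FGFR2 is to the left at -3.48. The 3 comparisons share the control libraries.

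FGFR2, the receptor whose epithelial form binds FGF7 and FGF10, fell at 3 hours. It was at 157, 136, and 55.1 CPM in the control libraries, 11.8, 9.71, and 9.66 CPM in TL3h, 48.9, 49.4, and 41.6 CPM in TL3d, and 157, 57.3, and 71.4 CPM in TL14d. The TL3h libraries were tightly grouped and lay below every other library. The log2 fold change at TL3h was -3.48 ± 0.46 (SE, q = 0.00026, edgeR), which is 11.2-fold lower. The TL3d libraries also lay below the control libraries, with a log2 fold change of -1.31 ± 0.42 and q = 0.056 in edgeR, so this difference did not pass. It passed with DESeq2 at q = 0.014 and, in edgeR, with the replicate number as a block (q = 0.042) and without TL14d replicate 1, TL14d replicate 2, or control replicate 3, with q as low as 0.019. From TL3h, FGFR2 rose by 2.17 ± 0.43 on the log2 scale to TL3d (q = 0.0034, edgeR) and by 3.20 ± 0.45 to TL14d (q = 0.00041, edgeR). At TL14d, FGFR2 overlapped with the control group, with a log2 fold change of -0.29 ± 0.41 (q = 0.838).

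The summed epithelial markers overlapped between TL3h and the control group. The summed level of the 6 measured epithelial markers was 4076 to 8562 CPM in the control group, 4059 to 6663 CPM in TL3h, 6202 to 16312 CPM in TL3d, and 8623 to 12649 CPM in TL14d. At TL3h, 1 of the 6 passed the test higher and 1 lower, near the 23.2% and 22.2% of all genes. PAX6, a regulator of ocular surface epithelium, had means of 291 CPM (control) and 89.7 CPM (TL3h), and EPCAM, an epithelial adhesion protein, of 155 and 310.4 CPM. KRT4 and KRT5 made up most of the sum, at control means of 3128 and 1963 CPM beside 6410 CPM. The 2 measured goblet cell markers summed to 486 to 1664 CPM in the control group and 102 to 467 CPM in TL3h, without overlap. Of these, 1 passed lower at TL3h, beside 22.2% of all genes. The part of tissue composition in the FGFR2 level was not tested.

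FGFR1, the main receptor of stromal cells, had the highest level per length of these genes in every group, and it differed between the times after surgery. It was at 160, 178, and 594 CPM in the control libraries, 392, 743, and 518 CPM in TL3h, 52.7, 80.8, and 165 CPM in TL3d, and 191, 87.6, and 176 CPM in TL14d. The TL3h libraries lay above all TL3d and TL14d libraries, and control replicate 3 lay within the TL3h range. From TL3h, FGFR1 fell by 2.47 ± 0.61 on the log2 scale to TL3d (SE, q = 0.0099, edgeR) and by 1.86 ± 0.59 to TL14d (q = 0.027, edgeR). The fall to TL14d did not pass without TL14d replicate 2, TL14d replicate 3, TL3h replicate 2, or TL3h replicate 3, with q up to 0.088, or with library size alone, with q = 0.061. Against the control group, the log2 fold change was 0.83 ± 0.58 at TL3h (q = 0.275), -1.64 ± 0.59 at TL3d (q = 0.077), and -1.04 ± 0.58 at TL14d (q = 0.569). Without control replicate 3, FGFR1 passed at TL3h with a log2 fold change of 1.66 and q = 0.028, and the value at TL3d was -0.78. The difference at TL3d passed with DESeq2 (q = 0.020) and, in edgeR, without TL3d replicate 3, at -2.22 with q = 0.048. The fibroblast marker sum given above put the libraries in the same order as FGFR1 within the control group, TL3h, and TL3d, but not within TL14d. Of the 6 fibroblast markers, 0 passed at any time against the control group with edgeR or DESeq2, and 0 had an unadjusted p under 0.05, beside 52.3% of all genes at TL3h, 36.2% at TL3d, and 10.4% at TL14d. The part of tissue composition in the FGFR1 level was not tested.

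KL, which encodes the klotho coreceptor of FGF23, rose at 3 hours. It was at 0.997, 0.9, and 1.23 CPM in the control libraries, 6.84, 7.18, and 6.0 CPM in TL3h, 5.90, 1.88, and 1.05 CPM in TL3d, and 0.841, 0.761, and 0.814 CPM in TL14d. The TL3h libraries lay above all others, although TL3d replicate 1 at 5.90 CPM came close to the lowest of them. The log2 fold change at TL3h was 2.67 ± 0.54 (SE, q = 0.0027, edgeR). At TL3d it was 1.5 ± 0.52 (q = 0.070, edgeR), and it passed with DESeq2 at q = 0.026 and, in edgeR, without TL3d replicate 3 at q = 0.025. Without TL3d replicate 1 it was 0.49 with q = 0.334. From TL3h, KL fell by 3.05 ± 0.55 on the log2 scale to TL14d (q = 0.0015, edgeR). Between TL3d and TL3h the log2 difference was -1.18 ± 0.51 (q = 0.094). It passed in 2 of 19 alternatives, among them the fit without TL3d replicate 1, at -2.18 with q = 0.0019. The TL14d libraries lay just below the control libraries, with a log2 fold change of -0.37 ± 0.52 (q = 0.833). FGF23 and KL had the same order of libraries within TL3h and within TL3d, but not within TL14d, where the library without FGF23 had the highest KL. Over the 12 libraries, Pearson's r of log2(CPM + 0.5) between FGF23 and KL was 0.86, as a description of libraries that share their groups. Markers of kidney tubule, where klotho is known to be abundant, were near 0, with a sum of at most 0.677 CPM in any library.

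Levels of different genes were compared per length, from the deposited FPKM (fragments per kilobase of transcript per 1000000 fragments), without a test. In the control group, FGFR1 had a mean of 84.1 FPKM, FGFR2 23.0 FPKM, FGF10 2.15 FPKM, FGF7 1.24 FPKM, FGF2 1.01 FPKM, and the other 4 genes less than 1 FPKM. The lowest library of FGFR1 lay above the highest of FGFR2, the lowest of FGFR2 above the highest of FGF10, and FGF10, FGF7, and FGF2 overlapped. In TL3h, FGFR1 led at 109 FPKM, followed by FGF23 at 8.15 FPKM and FGF2 at 7.38 FPKM, which overlapped, and FGFR2 was in the fifth place at 1.47 FPKM. FGF7 at 1.79 FPKM overlapped with FGFR2 there. In TL3d, the order was FGFR1 at 27.4 FPKM, FGF23 at 13.6 FPKM, FGFR2 at 9.25 FPKM, and FGF7 at 6.51 FPKM, and neighbors in this order overlapped. In TL14d, FGFR1 at 42.2 FPKM and FGFR2 at 18.9 FPKM led again, followed by FGF7 at 4.73 FPKM, neighbors again overlapped, and FGF23 was at 0.161 FPKM. KL was below FGFR1 in every group, at 0.198 FPKM in the control group, 0.914 FPKM in TL3h, 0.569 FPKM in TL3d, and 0.155 FPKM in TL14d. FGF16, a ligand described further on, had a mean of 4.48 FPKM in TL3h. The place of FGF23 in TL3d rests on replicate 1, and without it FGF23 had a mean of 6.09 FPKM and FGF7 one of 8.72 FPKM.

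**Figure D3:**
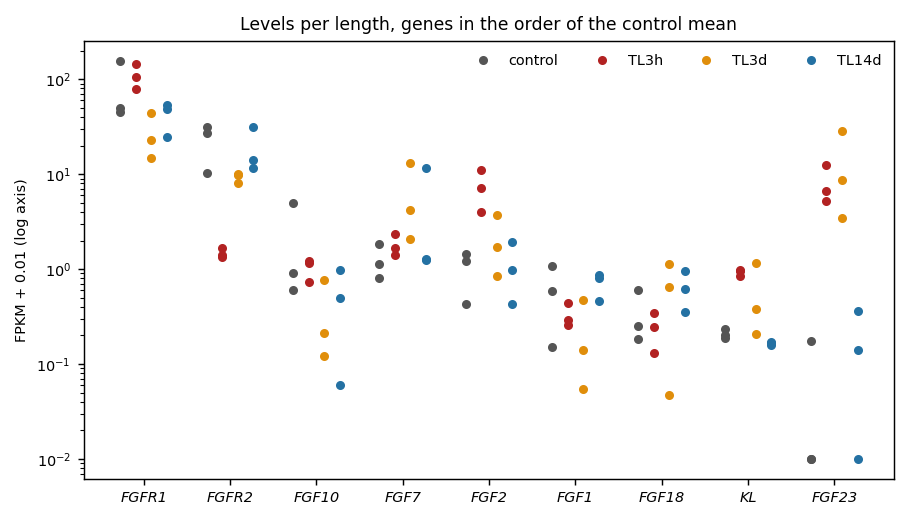
Deposited FPKM plus 0.01 on a log axis for 9 genes in the order of their control mean, with 1 point per library and 1 color per group. FGFR1 has the highest mean in each group, and FGF23, last in the control group at a mean of 0.0549 FPKM, is second in TL3h and TL3d at 8.15 and 13.6 FPKM.

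The ratio of the receptors per length separated TL3h from the other groups. FGFR1 FPKM divided by FGFR2 FPKM was 1.43, 1.84, and 15.2 in the control libraries, 46.9, 108, and 75.6 in TL3h, 1.52, 2.30, and 5.57 in TL3d, and 1.71, 2.15, and 3.46 in TL14d. In each of the control, TL3d, and TL14d groups, replicate 3 had both the highest ratio and the highest fibroblast marker sum. Control replicate 3 and TL3d replicate 3 had fibroblast sums of 53196 and 45554 CPM and ratios of 15.2 and 5.57, while the TL3h libraries began at 69656 CPM and 46.9. The part of tissue composition in this ratio was not tested.

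**Figure D4:**
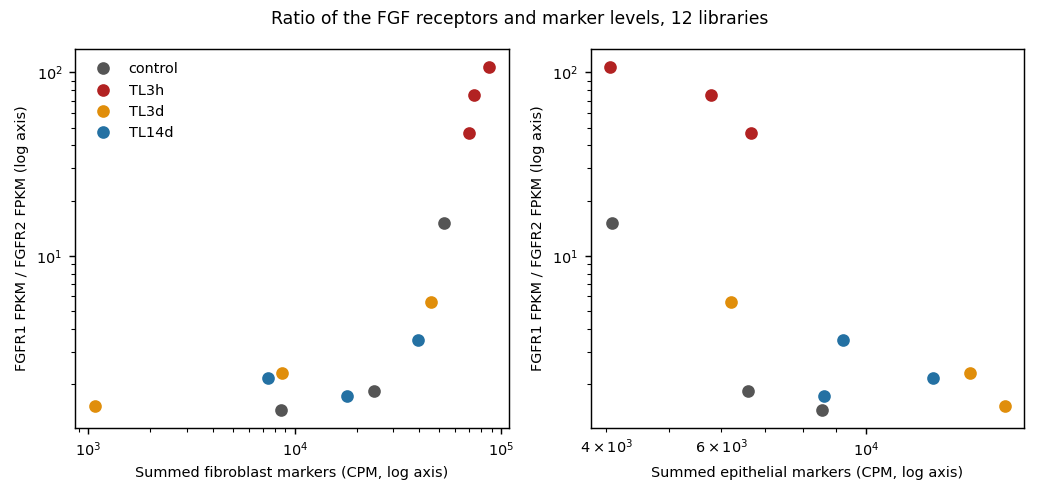
FGFR1 FPKM divided by FGFR2 FPKM against the summed level of 6 fibroblast markers (left) and of 6 epithelial markers (right), all on log axes, with 1 point per library and 1 color per group. The TL3h libraries stand at ratios of 46.9 to 108, control replicate 3 is at 15.2, and the other 8 libraries are between 1.43 and 5.57.

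At the level of transcripts, FGFR2 fell in 3 of its 6 tested models. Of the 20 transcripts of the 8 genes that were tested, 5 passed at TL3h against the control group, beside 28.3% of all 26082 transcripts tested: 1 of FGF2, 3 of FGFR2, and 1 of KL. At TL3d and TL14d 0 of 20 passed with edgeR, beside 5.13% and 0.00%, and 7 and 2 had an unadjusted p under 0.05, beside 24.9% and 7.84%. The leading FGFR2 model, XM_008270463.2, had means of 111 CPM (control) and 5.88 CPM (TL3h), a log2 fold change of -4.23 ± 0.52 (SE, q = 0.00039, edgeR). It held 70.0% to 80.3% of the FGFR2 transcript counts in the control libraries, 35.4% to 58.2% in TL3h, 75.5% to 78.2% in TL3d, and 73.6% to 79.5% in TL14d. The shares in TL3h lay below those of all other libraries, at a level where FGFR2 had few counts. The FGFR2 models XM_008270466.2 and XM_008270458.2 also fell, with log2 fold changes of -3.76 ± 0.85 (q = 0.0088) and -4.76 ± 1.03 (q = 0.0067), and NM_001082688.1 was at -1.46 ± 0.73 (q = 0.169). The other FGFR2 models tested lay in the opposite direction without passing, XM_017348408.1 at 3.86 ± 2.13 (q = 0.225) and XM_008270456.2 at 1.73 ± 2.32 (q = 0.642). XM_017348408.1 held 1.77% to 17.1% of the FGFR2 transcript counts in TL3h and at most 0.174% in the control libraries. How reads shared by several models were divided is not stated, and which models encode the epithelial form was not analysed here. FGFR1 had 4 tested models of 7, with the lowest q against the control group at 0.052, for XM_008273975.2 at TL3d (edgeR). The FGFR1 models XM_008273974.2 and XM_008273975.2 fell from TL3h to TL3d by 2.94 ± 0.56 (q = 0.0050) and 2.70 ± 0.49 (q = 0.0039) on the log2 scale.

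FGF signals induce their own inhibitors, and a list of 15 such feedback and target genes was read beside the ligands. These genes answer to other growth factor signals too. At TL3h, 10 of 15 were higher and 0 lower, beside 23.2% and 22.2% of all genes, with a median log2 fold change of 1.71 beside 0.02. At TL3d, 6 were higher and 1 lower, beside 10.6% and 7.0%, with a median of 1.30 beside -0.0018. At TL14d, 0 passed with edgeR and 2 with DESeq2, beside 0.00% and 2.49% of all genes, and 5 had an unadjusted p under 0.05, beside 10.4%. Of the 10 higher genes at 3 hours, 5 were Sprouty or Spred genes, which encode inhibitors of the Ras pathway. SPRED3 rose from a control mean of 0.338 ± 0.071 CPM to 10.6 ± 4.68 CPM in TL3h (SD, n = 3; q = 0.00075, edgeR) and 9.55 ± 5.81 CPM in TL3d (q = 0.010). SPRY2 rose from 16.1 ± 2.52 CPM to 91.6 ± 15.8 CPM in TL3h (q = 0.00010, edgeR) and was lower than the control group in TL3d, at 7.46 ± 1.54 CPM (q = 0.018). The ETS transcription factor ETV4 followed another course, with 0.215 ± 0.128 CPM in the control group, 0.705 ± 0.556 CPM in TL3h (q = 0.310, edgeR), and 15.9 ± 8.54 CPM in TL3d (q = 0.021). The TL3h count was 9 or 10 with any library left out. Without TL14d replicate 1, 4 of the 15 genes were higher at TL14d, in a fit that called 716 genes over all. The TL3d count of 6 higher genes was 3 without TL3d replicate 1 and 1 without TL3d replicate 2, control replicate 1, or control replicate 2, and in these fits the calls over all genes dropped from 2608 to between 359 and 491. In the same 4 fits ETV4 lost its call at TL3d, with q up to 0.079, and SPRY2 lost it without TL3d replicate 1 or 2 or control replicate 2, with q up to 0.0700.

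**Figure D5:**
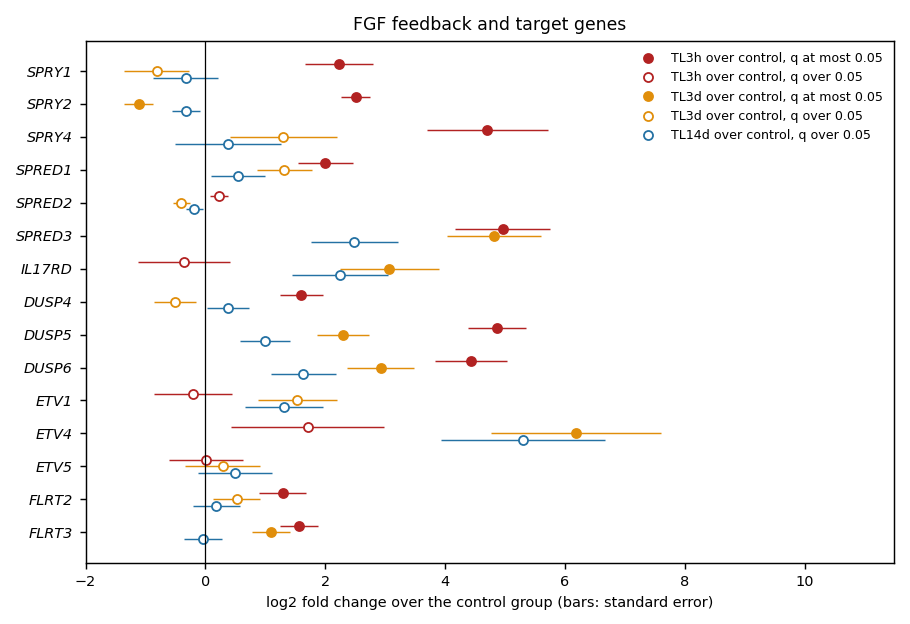
Log2 fold change over the control group on the horizontal axis for 15 FGF feedback and target genes, with standard errors as bars and 1 color per time after surgery (n = 3 per group). Filled points passed the test (q at most 0.05) and open points did not, with 10 filled to the right at TL3h, 6 to the right and 1 to the left at TL3d, and 0 at TL14d.

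The other parts of the pathway differed between genes in size and direction. Of 12 further secreted ligands on the list, 9 had a row and 2 were expressed enough for a test. FGF16, a relative of FGF9, rose at TL3h from 0.835 ± 0.582 to 8.44 ± 5.25 CPM (SD, n = 3; q = 0.042, edgeR), and it lost its call with library size alone (q = 0.060) or without any 1 of 6 single libraries, control replicates 1 and 2, TL3h replicates 2 and 3, TL3d replicate 2, and TL14d replicate 3, with q up to 0.132. Of the intracellular FGF homologous factors, 0 of 3 passed at any time against the control group with edgeR. Over all genes, 45.4%, 17.6%, and 0.00% did so at TL3h, TL3d, and TL14d. At TL3d, 1 of 3 passed with DESeq2 and 1 had an unadjusted p under 0.05, beside 30.3% and 36.2%. These counts were 0 and 0 at the other times. The unadjusted shares over all genes were 52.3% at TL3h and 10.4% at TL14d, and DESeq2 called 7534 genes at TL3h and 2.49% at TL14d. Of 10 tested receptors, coreceptors, and carriers, SDC4 passed at TL3h, beside 23.2% of all genes higher, and FGFBP2 is set apart for its low counts. With FGFBP2 counted, 4 had an unadjusted p under 0.05 at TL3d and 4 at TL14d, beside 36.2% and 10.4% of all genes. DESeq2 called 3 and 1, beside 30.3% and 2.49%. At TL14d 0 passed with edgeR, and 3 were higher without TL14d replicate 1. SDC4, a heparan sulfate proteoglycan of the cell surface, rose from 680 ± 101 to 3556 ± 1046 CPM at TL3h (q = 0.00076, edgeR). FGFBP2, of the FGF-binding protein family, is given by its values without a test, since the low count filter kept it through 2 libraries of TL3d and 2 of TL14d. It had 0 counts in the control libraries, 4 counts in each TL3h library, and 6 to 25 counts in TL3d, which was at least 6.79-fold higher than the level of 3 counts per library.

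Of 12 genes that relay the signal from the receptor, 2 were higher and 5 lower at TL3h, beside 23.2% and 22.2% of all genes. At TL3d and TL14d 0 passed with edgeR, beside 17.6% and 0.00%. DESeq2 called 2 at TL3d and 0 at TL14d, beside 30.3% and 2.49% of all genes. An unadjusted p under 0.05 was found for 4 and 0, beside 36.2% and 10.4%. The docking proteins GAB1 and FRS3 fell by 1.35 ± 0.36 (SE, q = 0.011, edgeR) and 1.22 ± 0.34 (q = 0.014) on the log2 scale, and FRS3 lost its call without control replicate 2, at q = 0.051. The kinase MAP2K1 was higher by 0.51 ± 0.17 (q = 0.033, edgeR), and with library size alone it was at 0.0049. Its call held in 12 of 19 alternatives. The count of 5 lower genes was 3 without control replicate 2, and that of 2 higher genes was 0 with library size alone, DESeq2 size factors, or no filter, and without TL3h replicate 2 or 3 or control replicate 2 or 3. Of 10 genes of heparan sulfate synthesis and editing, 1 was higher and 3 lower at TL3h, and 2 were higher and 0 lower at TL3d. These counts are near those over all genes, 45.4% at TL3h and 17.6% at TL3d. The TL3h count of lower genes was 6 with library size alone and without TL14d replicate 1, and 2 without any 1 of the TL3h libraries or control replicate 2 or 3, and the TL3d count of higher genes was 0 or 1 without any 1 library other than those of TL14d. HS3ST1, which adds 3-O-sulfate, rose by 2.54 ± 0.46 on the log2 scale at TL3h (q = 0.0015, edgeR), whereas the 2-O-sulfotransferase HS2ST1 fell by 1.65 ± 0.16 (q = 5.8e-05) and the 6-O-sulfotransferase HS6ST2 fell by 2.24 ± 0.71 (q = 0.026), which did not pass without any 1 of the TL3h libraries or control replicate 2 or 3. SULF2, which removes 6-O-sulfate, was higher by 1.58 ± 0.45 at TL3d (q = 0.040), and its call was lost with the replicate number as a block and without any 1 library of the control, TL3h, or TL3d groups other than TL3d replicate 3.

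Of 10 tested genes of FGF23 processing and the mineral axis, 2 were higher and 1 lower at both TL3h and TL3d, beside 45.4% and 17.6% of all genes in either direction. At TL14d, 0 passed with edgeR or DESeq2, beside 0.00% and 2.49%, and 2 had an unadjusted p under 0.05, beside 10.4%. The TL3d count of higher genes was 1 without TL3d replicate 1 or 2 or any 1 control library. FURIN, a protease that can cleave FGF23 and many other proteins, had means of 73.8 ± 4.08 CPM (control), 233 ± 55.0 CPM in TL3h (SD, n = 3; q = 0.00031, edgeR), and 222 ± 21.6 CPM in TL3d (q = 0.0085). SLC20A1, a phosphate transporter of most cells, had means of 132 ± 9.13 CPM (control), 754 ± 225 CPM in TL3h (q = 0.00060), and 357 ± 170 CPM in TL3d (q = 0.029). The TL3d call of SLC20A1 was lost without any 1 of the control libraries or TL3d replicate 1 or 2, with q up to 0.102. SLC34A2, a sodium phosphate cotransporter of epithelia, had means of 673 ± 259 CPM (control), 310 ± 40.3 CPM in TL3h (q = 0.038), and 248 ± 87.1 CPM in TL3d (q = 0.034). The call of SLC34A2 at TL3d was lost without control replicate 1 or 3 or any 1 TL3d library and with only the 6 libraries compared, with q up to 0.118, and that at TL3h with limma-trend and without control replicate 1 or 3, TL3d replicate 2, or any 1 TL3h library, with q up to 0.099.

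The genes whose levels over the 12 libraries were most like those of FGF23, by Pearson's r of log2(CPM + 0.5), were SLIRP, SYNDIG1, MTHFS, E2F2, ADGRE2, F5, GIMAP8, XKRX, TAF1C, and SH2D1B, with r from 0.96 to 0.95. These values describe libraries that share their groups. F5, coagulation factor V, was at 0.309, 0.300, and 1.83 CPM in the control libraries and 21.4, 30.0, and 14.9 CPM in TL3h, and ADGRE2, an adhesion receptor of myeloid cells, at 0.0475, 0.325, and 0.502 CPM and 15.2, 6.72, and 8.52 CPM.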

How the data were processed

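RNA of conjunctiva was measured in 12 libraries, grouped by their sample titles. The authors mapped reads with STAR 2.6.0c (per the labels) and deposited estimated counts per gene and transcript on OryCun2.0, not divided by depth and with 23.4% fractions among gene values. The authors also deposited FPKM, used here only for levels per length. The counting settings are not stated in the sources used here, and the trabeculectomy libraries came from earlier work of the same group.

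Estimated counts were rounded. With filterByExpr of edgeR 4.0.16 (at least 10 counts, total of at least 15), 14835 of 20566 genes were tested, as were 26082 of 38710 transcripts. All libraries entered 1 quasi-likelihood fit with TMM in R 4.3.3, tested on simulated data, with p-values adjusted by Benjamini-Hochberg over all genes tested and a threshold of 0.05. Standard errors came from the log2 fold change and its test statistic. Bounds and floors use 3 counts per library (95% confidence) and cover counting error only. The total count was 27111276 to 38591374. Alternatives were DESeq2 1.42.0 size factors and its test, library size only, limma-trend (limma 3.58.1, prior count 1), no filter, 6 libraries only, a replicate block, and each library left out.

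The genes, gene lists, marker lists, and tests were chosen with earlier results of these data known, so the number of listed genes called says nothing about the family. FGF23 was planned to be left untested only against TL3h, and was left untested throughout because it was picked for its level at 3 hours and 3 days. From each list, up to 2 genes higher and 2 lower were named, those with the largest change that passed the test without overlap against the control group, apart from a gene that is not reported here. PAX6, EPCAM, KRT3, KRT4, KRT5, KRT12, MMP9, PHEX, and IBSP were named after their values were seen, as were the overlapping genes NUDT6 and FAM227B. No sequence was printed, since the reference table holds none.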

Additional observations from a re-analysis of the deposited data

Results flagged for a closer look

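The level differed between times after surgery for 7 results, by the test of the difference between the times itself in edgeR, which leaves the control libraries out of the contrast. From TL3h to TL3d, the log2 difference was -2.31 for FGF2, -2.47 for FGFR1, and 2.17 for FGFR2. From TL3h to TL14d it was -3.23 for FGF2, -1.86 for FGFR1, 3.20 for FGFR2, and -3.05 for KL. Both sets share the TL3h libraries. The cause was not tested.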

How the results depend on the processing

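The calls of FGF2, FGFR2, and KL at TL3h held in all 19 alternatives, and none of the 8 tested FGF genes turned its direction with library size only. Over all genes, library size only moved the share of higher genes among those called from 51.0% to 25% at TL3h, from 49.2% to 80.5% between TL3d and TL3h, and from 50.7% to 77.6% between TL14d and TL3h. DESeq2's test called 4471 genes at TL3d (53.7% higher, beside 60.2% of 2608 in edgeR), 5 of the 8 tested FGF genes there (FGF7, FGF10, FGFR1, FGFR2, and KL), and 367 genes at TL14d (79.0% higher). Leaving out 1 library gave 5280 to 7271 genes at TL3h, 359 to 3778 at TL3d, 0 to 716 at TL14d, 3954 to 6231 between TL3d and TL3h, and 5464 to 6798 between TL14d and TL3h. The lowest count at TL3d came without TL3d replicate 2, and 716 came without TL14d replicate 1. Of the 8 tested FGF genes it gave 3 to 4 calls at TL3h, 0 to 2 at TL3d, 0 at TL14d, 2 to 3 between TL3d and TL3h, and 3 to 4 between TL14d and TL3h. FGFR1 had the highest mean of these genes in 4 of 4 groups by FPKM, and also by CPM, which is not divided by length.

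Some of the values that did not pass turned their sign. With limma-trend, FGF10 was at 0.0023 and FGF18 at 0.00034 at TL3h, and FGF2 at -0.0079 at TL14d. With 1 library left out, the log2 fold change at TL3h ranged from -0.91 to 0.31 for FGF1, from -1.09 to 0.91 for FGF10, and from -0.50 to 0.59 for FGF18, at TL3d from -0.0435 to 1.49 for FGF18, and at TL14d from -0.26 to 1.0 for FGF1, from -0.60 to 0.50 for FGF2, and from -0.0248 to 2.37 for FGF7. Between TL14d and TL3h it ranged from -1.01 to 1.38 for FGF7. The cause was not tested.

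The labels do not say whether replicate numbers pair the libraries, and the correlations between libraries do not settle it. Of 18 pairs with the same number in different groups, 8 had a correlation of deviations over 0.1, with a range from -0.15 to 0.48, and in 9 of 18 cases a library was closest to its own number. With that number as a block in the replicate design, 1 of 8 FGF genes passed at TL3d (FGFR2, q = 0.042), FGF1 was at 0.0817 and FGF10 at 0.0454 at TL3h, and FGF7 was at -0.0101 between TL14d and TL3h. The FGF23 level of the control group rests on the 19 counts of 1 library, and the other control libraries are below the floor of 3 counts.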
